A study of Mus musculus with 37 samples.

Results

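The genes described here are 41 type I interferon-stimulated genes, taken as a named list and matched by symbol to the 52636 genes of the count tables. The list was chosen with earlier results of these data known. All 41 were matched, 40 had counts, and the same 40 passed the filter on low counts and were tested. Cxcl10, an interferon-induced chemokine, had 0 counts in every library, but its whole span lies inside Art3, so that 0 was not read as absence of the transcript. Type I interferons are secreted proteins that bind a shared receptor and, through the kinases JAK1 and TYK2, assemble a complex with STAT2 and IRF9 that binds the interferon-stimulated response element (ISRE) in promoters. The genes switched on in this way restrict viruses by binding or degrading foreign RNA, sense nucleic acids in the cytoplasm, present antigen and feed back on the signal. Many of them are also expressed at a low level in epithelium without infection.

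RNA was measured in mature luminal cells, the hormone-receptor-bearing epithelial cells of the mammary gland, sorted by flow cytometry from mice of 8 weeks that had been ovariectomized. Each mouse had carried a pellet for 8 days, which held placebo, estradiol (E2), progesterone (P4) or, in a further treatment, E2 and P4 together (E2+P4). Esr1, the gene of estrogen receptor alpha, was wild type (WT) or carried D542G or Y541S, substitutions in the ligand-binding domain, and each genotype received each treatment. The groups held 3 libraries each, except WT P4 with 4, and libraries keep the numbers of their titles (WT P4 2 to 5, Y541S placebo 2, 3 and 5). All groups, controls included, therefore lacked ovaries and carried a pellet. The labels do not say whether the mutant mice were heterozygous or homozygous, in which cells the mutant allele was active, or whether each library came from a separate animal. The p-values therefore reflect the spread between the libraries at hand, which may be technical in part.

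Library totals ran from 25.69 M to 52.24 M counts (M, 1e6), with a median of 41.26 M. Levels are given as CPM, the counts of a gene relative to 1e6 counts of its library, scaled by the trimmed mean of M values, and changes as log2 fold changes ± SE from edgeR's quasi-likelihood test. A gene was called, and is said to have risen or fallen, at an adjusted p under 0.05 over all 18426 genes tested. The 10 mature luminal markers were high in every library (mean log2 CPM 7.61 to 9.93) and lowest in WT E2 (7.61 to 8.58), where luminal progenitor markers were higher than in WT placebo (9.05 to 9.88 against 6.43 to 6.80). Leukocyte markers were low. Lcp1 made up most of their summed CPM in WT placebo (155 to 200 CPM), so their mean log2 CPM is given beside it. That mean ran from -2.25 to 1.39 over all libraries, and WT E2 library 1 and Y541S placebo library 5 were the highest of their groups (1.16 and 1.22). In bulk RNA, fewer cells of a type and less RNA per cell cannot be told apart.

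The interferon-stimulated genes were highest in Y541S cells given E2. In all 3 libraries of that group, 32 of the 40 genes were above every one of the other 34 libraries, against 0.868% of all genes tested. The mean log2 CPM over the 40 genes was 7.15, 6.45 and 6.92 in Y541S E2, against 3.32, 3.05 and 3.40 in WT placebo, 3.48, 3.18 and 3.09 in D542G placebo, and 5.19, 4.80 and 5.42 in Y541S placebo. E2 libraries of the other genotypes lay between these, at 3.93, 5.33 and 5.08 in WT and 4.27, 4.46 and 4.24 in D542G. With P4 added to E2, the Y541S values were 4.06, 4.08 and 4.08, below every Y541S placebo library. The group with the highest mean was Y541S E2 for 37 of the 40 genes. The exceptions were Irf9, highest in WT E2, Stat2, highest in WT P4, and Bst2, highest in WT E2+P4.

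**Figure D1:**
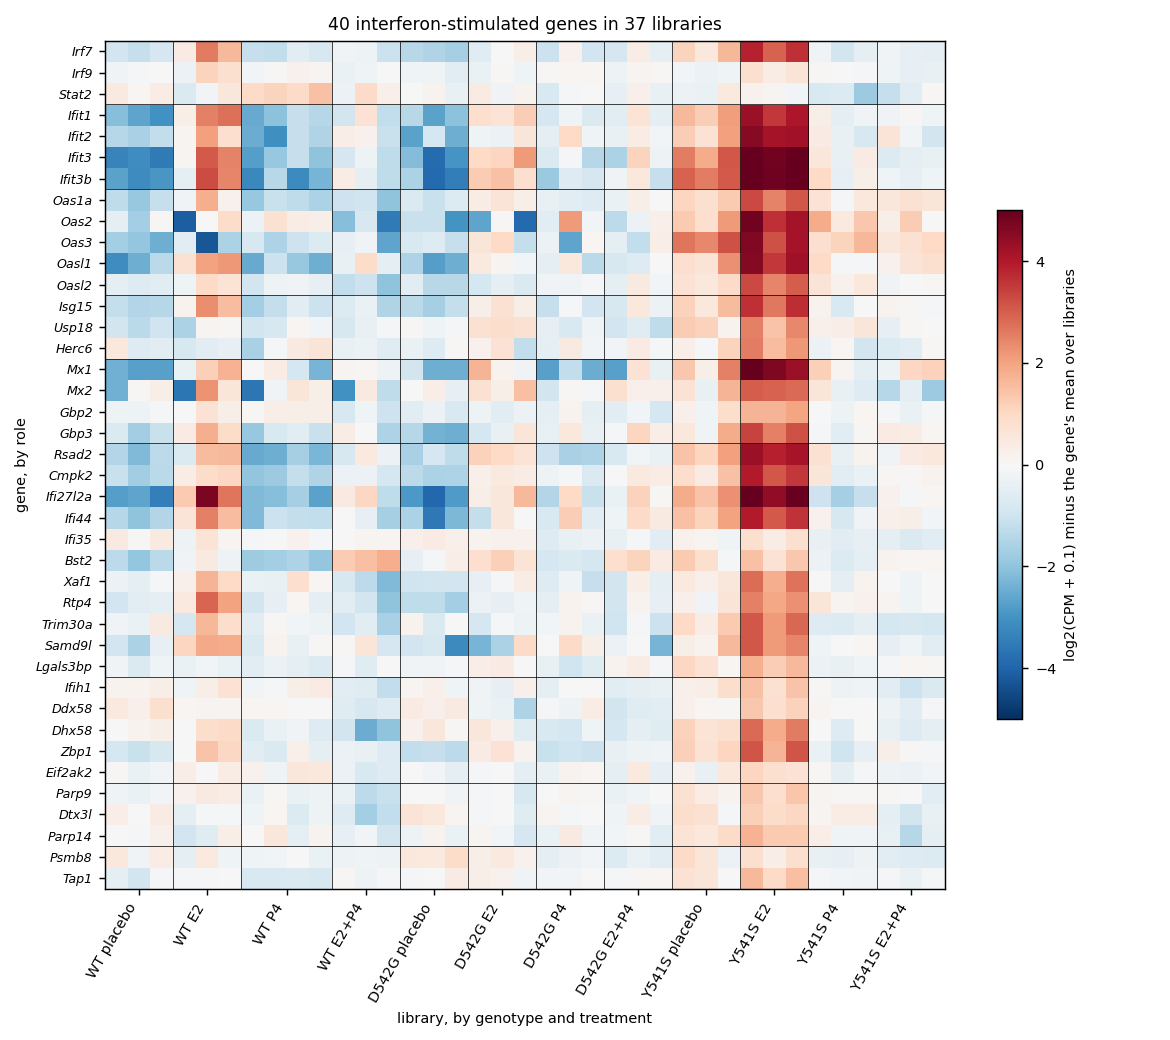
Levels of the 40 interferon-stimulated genes with counts (rows, by role) in the 37 libraries (columns, by genotype and treatment). Colour is log2(CPM + 0.1) minus the gene's mean over libraries, and the Y541S E2 columns hold the highest values for 32 of the 40 genes.

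The stretches just upstream of 5 of these genes are shown for the ISRE, the DNA element that the pathway is known to use, which 4 of them held. Each is 150 bases from RefSeq (GRCm38.p6), read 5′ to 3′ on the gene's strand, and ends before the most upstream annotated start of the gene. Capitals mark matches to the ISRE core, GAAA and GAAA with 2 free bases between them, on either strand, so that it can also read TTTC and TTTC. Ifit1, Ifit3, Isg15 and Rsad2 were called higher with E2 in all 3 genotypes, and Ddx58 was called higher in Y541S and lower in D542G.
Ifit1, chr19:34640721-34640870, plus strand: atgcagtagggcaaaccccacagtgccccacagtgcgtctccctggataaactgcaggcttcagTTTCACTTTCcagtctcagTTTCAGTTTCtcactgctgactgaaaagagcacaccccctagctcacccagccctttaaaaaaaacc
Ifit3, chr19:34583379-34583528, plus strand: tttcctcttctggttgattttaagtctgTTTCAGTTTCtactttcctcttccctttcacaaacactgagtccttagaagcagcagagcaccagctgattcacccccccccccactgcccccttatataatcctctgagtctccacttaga
Isg15, chr4:156200819-156200968, minus strand: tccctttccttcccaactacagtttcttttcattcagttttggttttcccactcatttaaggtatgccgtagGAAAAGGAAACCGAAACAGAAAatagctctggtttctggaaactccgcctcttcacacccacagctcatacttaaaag
Rsad2, chr12:26456453-26456602, minus strand: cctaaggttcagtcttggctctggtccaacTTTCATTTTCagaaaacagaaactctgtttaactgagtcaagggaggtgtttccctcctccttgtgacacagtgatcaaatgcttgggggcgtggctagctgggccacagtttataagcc
Ddx58, chr4:40239829-40239978, minus strand: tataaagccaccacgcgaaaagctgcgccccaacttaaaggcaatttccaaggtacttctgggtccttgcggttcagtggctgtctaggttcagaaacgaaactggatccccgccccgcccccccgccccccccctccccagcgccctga
Counted back from the end of the printed stretch, Ifit1 had matches beginning at 86 and 67 bases, Ifit3 1 at 122 bases, Isg15 3 overlapping ones at 78, 72 and 66 bases and Rsad2 1 at 120 bases, while Ddx58 had none in this stretch. Over the 250 bases upstream of the RefSeq starts, 13 of the 31 genes with an entry (41.9%) held the core, against 3.46% of all 27025 genes with a promoter entry. The gamma-activated site, TTC and GAA with 3 free bases between them, was found in 16.1% of the 31 and in 8.13% of all genes, and the NF-kB core, GGGA and CC with 4 free bases between them, in 19.4% and 19.67%. The palindromic estrogen response element, GGTCA and TGACC with 3 free bases between them, was in 0 of the 31 and in 18 of all genes. Of 12 tested genes with an ISRE match, 8 rose with E2 in WT, 8 in D542G and 9 in Y541S. Of 18 without one, 9, 5 and 13 rose, and of 10 with no promoter entry, 5, 4 and 6 rose. In D542G, 1 of the 18 also fell. Ifit2, Irf7, Oasl1, Cmpk2 and Ifi44 had no match in this window, although they too were called higher with E2 in all 3 genotypes. A match describes the letters only, and the windows do not cover distant enhancers.

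In WT cells, E2 raised 22 of the 40 genes and lowered none, where 15.6% of all genes tested rose and 15.9% fell. The median log2 fold change of the 40 was 1.26, against 0.03 over all genes. All 4 IFIT genes, whose products bind viral RNA, rose. Ifit3 stood at 0.339, 0.409 and 0.281 CPM in WT placebo and at 4.75, 36.5 and 24.3 CPM in WT E2, a change of 5.97 ± 0.75 (adjusted p = 9.3e-07). Ifit1 went from 4.83, 3.35 and 2.50 CPM to 26.3, 122 and 142 CPM (4.76 ± 0.58, adjusted p = 5.27e-07). No library of one group reached the range of the other for either gene. Among the transcription factors, Irf7, which amplifies the interferon response, was at 21.6, 18.7 and 23.6 CPM with placebo and at 54.9, 256 and 128 CPM with E2 (2.78 ± 0.43, adjusted p = 1.56e-05). Irf9, the DNA-binding subunit of the STAT complex, rose by 0.74 ± 0.20 although WT E2 library 1 (76.1 CPM) lay below every placebo library. Isg15, a ubiquitin-like protein joined to other proteins, moved from 5.29 to 6.48 CPM to 17.1, 75.6 and 43.6 CPM (2.98 ± 0.45).

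Other genes that rose in WT E2 were Oas1a, Oasl1 and Oasl2 of the 5 OAS genes, a family named for the enzymes that make the activator of RNase L, although not every member is an active synthetase. Gbp3, a guanylate-binding GTPase, rose by 2.31 ± 0.52, and so did 8 of 11 other effectors, among them Rsad2 (viperin, 2.78 ± 0.44), its genomic neighbour Cmpk2 (2.19 ± 0.29) and Rtp4 (2.77 ± 0.41). Of the 5 nucleic acid sensors Zbp1 alone rose (1.86 ± 0.31), from 6.64 to 8.25 CPM to 14.3, 38.6 and 29.4 CPM. Mx1, an antiviral GTPase, was called higher, but it had 1 count in the WT placebo libraries together, so no fold is given. Usp18, which removes ISG15 and dampens the receptor, was not called (0.80 ± 0.34, adjusted p = 0.071), nor were Stat2 (-0.32 ± 0.34), Lgals3bp, a secreted glycoprotein (0.09 ± 0.20), Ifih1, the RNA sensor MDA5 (0.10 ± 0.23), Psmb8, an immunoproteasome subunit (-0.28 ± 0.23) and Tap1, a peptide transporter (0.41 ± 0.18, adjusted p = 0.0812). The groups did not overlap for 23 genes with E2 higher and for 2 with E2 lower, where 18.7% and 20.4% of all genes did so. WT E2 library 1 was the lowest of its group for 37 of the 40 genes, and without it or any other single library 20 to 25 were called. Leukocyte markers moved with this comparison. Of 16 tested, 13 had a positive log2 fold change, 11 an unadjusted p under 0.05, 5 were called higher and 1 lower. Their mean log2 CPM was -1.38 to 1.16 in WT E2 against -2.25 to -1.84 in WT placebo, with no overlap, while their summed CPM, 54 to 217 against 160 to 203, overlapped. Luminal progenitor markers were called higher for 6 of 7, and mature luminal markers higher for 2 and lower for 6 of 10. Ms4a1 and Itgam, markers of B and myeloid cells, were at 0, although both lie within other annotated genes. The part of other cells in the change was not tested.

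**Figure D2:**
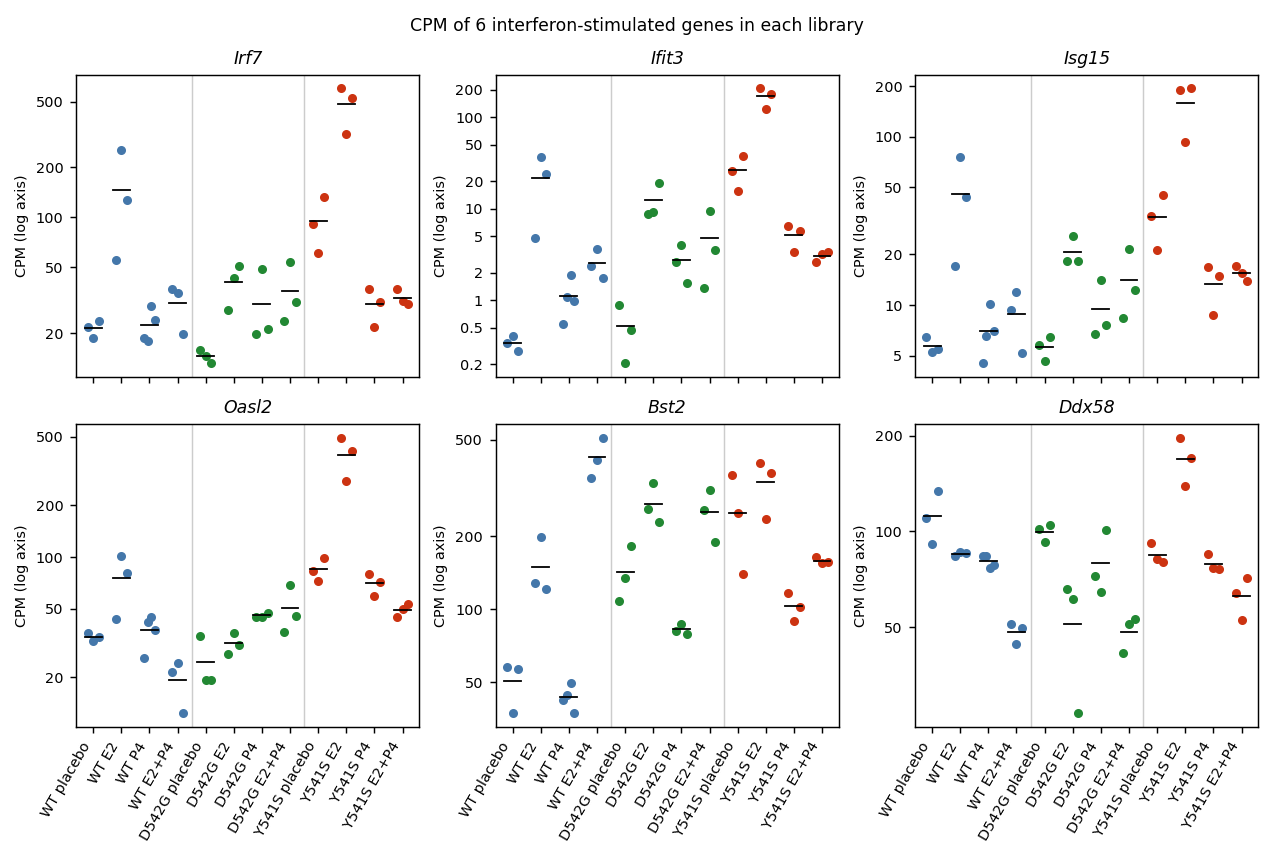
Levels of Irf7, Ifit3, Isg15, Oasl2, Bst2 and Ddx58 in each library (points, CPM on a log axis) by genotype and treatment, with the group mean as a black line. Ifit3 lies under 0.5 CPM in WT placebo and between 125 and 208 CPM in Y541S E2, whereas Bst2 is highest in WT E2+P4 (348 to 508 CPM).

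Without hormone, Y541S cells already differed from WT cells. Y541S placebo had 22 of the 40 genes higher than WT placebo and none lower, where 7.18% of all genes were higher and 6.22% lower, and the median log2 difference was 1.54 (0.02 over all genes). Ifit3 was at 25.7, 15.8 and 37.5 CPM in Y541S placebo, 6.25 ± 0.76 above WT placebo (adjusted p = 1.34e-06). Irf7 was at 91.2, 61.1 and 132 CPM (2.15 ± 0.42, adjusted p = 0.000753), so every Y541S placebo library exceeded the highest WT placebo library. Oas3 was 4.97 ± 0.82 and Usp18 2.02 ± 0.35 above WT, and neither of these was called in the WT response to E2. Lgals3bp (1.02 ± 0.20) and Tap1 (0.94 ± 0.18) were also higher. Irf9 (-0.12 ± 0.20), Stat2 (-0.30 ± 0.35) and the sensors Ifih1 (0.31 ± 0.23) and Ddx58, or RIG-I (-0.40 ± 0.21), were not called. The groups did not overlap for 28 genes, all with Y541S higher, against 14.3% of all genes.

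Against D542G placebo, Y541S placebo was higher for 25 genes and lower for none, where 6.61% and 5.24% of all genes were called. The libraries were apart for 28 genes with Y541S higher and 2 with it lower, against 15.7% of all genes in each direction. D542G placebo itself differed from WT placebo in 1 gene, Bst2 (tetherin, which holds budding viruses at the cell surface), at 108, 135 and 183 CPM against 58.0, 37.3 and 56.5 CPM (1.49 ± 0.27, adjusted p = 0.00152), where 1.24% of all genes were higher and 0.782% lower. Those groups were apart for 6 genes in each direction, against 12.1% higher and 11.8% lower over all genes. Without WT placebo library 3, 2 genes were called. The comparisons of placebo groups share libraries. Y541S placebo library 5, from a later series of sample identifiers, had the highest value of its group for 28 of the 40 genes. When that library was left aside with the others of its series, 21 genes differed from WT and 20 from D542G. Markers of other cells differed too. For leukocyte markers the log2 difference from WT placebo was positive for 15 of 16, the unadjusted p was under 0.05 for 12, and 2 were called higher and 1 lower. Their mean log2 CPM was -1.36 to 1.22 against -2.25 to -1.84, with no overlap, while their summed CPM was lower, at 100 to 136 against 160 to 203. All 6 fibroblast markers were positive and 2 were called higher (summed 441 to 4100 CPM against 37.5 to 279 CPM). In the same comparison 5 of 6 endothelial and 5 of 8 basal markers were positive, with 1 called higher in each list, and of 10 mature luminal markers 4 were called lower and 2 higher. Luminal progenitor markers were called higher for 2 of 7. Against D542G placebo, the mean log2 CPM of mature luminal markers was lower, at 8.46 to 9.01 against 9.27 to 9.6. That of fibroblast markers was higher, at 3.34 to 5.24 against 0.88 to 1.36. Leukocyte, basal and endothelial means overlapped between these groups. The part of these cells in either difference was not tested.

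E2 raised the genes further in Y541S cells. Compared with Y541S placebo, 28 genes rose and none fell, where 1.87% of all genes rose and 2.78% fell, and the median log2 fold change was 1.81 (-0.01 over all genes). Irf7 reached 602, 320 and 529 CPM (2.35 ± 0.42, adjusted p = 0.00139). Ifit3 reached 208, 125 and 179 CPM (2.69 ± 0.61, adjusted p = 0.00885) and Isg15 189, 93.2 and 194 CPM (2.25 ± 0.44). Each of these was above every placebo library. Oasl2 rose from 72.3 to 99.1 CPM to 492, 276 and 415 CPM (2.22 ± 0.29, adjusted p = 8.32e-05), and Cmpk2 from 35.0 to 72.1 CPM to 417, 225 and 303 CPM (2.61 ± 0.29, adjusted p = 2.22e-05).

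Several genes that E2 did not move past the threshold in WT were called in Y541S. Besides Isg15, both of its enzymes in the list rose, Usp18 by 1.26 ± 0.34 and Herc6, an ISG15 ligase, by 1.62 ± 0.48. Besides Zbp1 (1.79 ± 0.31), the sensors Dhx58, or LGP2 (1.60 ± 0.33), and Ddx58 (1.0 ± 0.21) rose, and so did Tap1 (0.91 ± 0.18) and Lgals3bp (0.90 ± 0.20). Among these genes, the test of the difference between the genotypes' responses, given below, called Ddx58 alone. Irf9 rose by 0.83 ± 0.20. Mx1 was at 20.8, 16.8 and 13.1 CPM against 0.711 to 3.70 CPM with placebo, but was not called (3.08 ± 1.06, adjusted p = 0.0974). Ifih1 (0.73 ± 0.23, adjusted p = 0.0703), Bst2 (0.43 ± 0.26), Psmb8 (0.17 ± 0.23) and Stat2 (0.05 ± 0.34) were not called either. The groups did not overlap for 36 genes, all with E2 higher, against 13.2% of all genes.

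The count of 28 depended on the fit and on single libraries. With the libraries of these groups fitted alone, edgeR called 0 genes of all those tested, although 36 of the 40 had an unadjusted p under 0.05, and DESeq2 over all libraries called 31. Without Y541S placebo library 3 the count was 16, and without Y541S E2 library 1 it was 18. Library 2 of Y541S E2 was the lowest of its group for 34 of the 40 genes. Leukocyte markers had a mean log2 CPM of 0.11 to 1.39 in Y541S E2, overlapping the placebo range, with 13 of 16 positive, none called higher, 1 called lower and 1 at an unadjusted p under 0.05. Siglech, a marker of plasmacytoid dendritic cells, was at 0 in all 3 libraries.

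**Figure D3:**
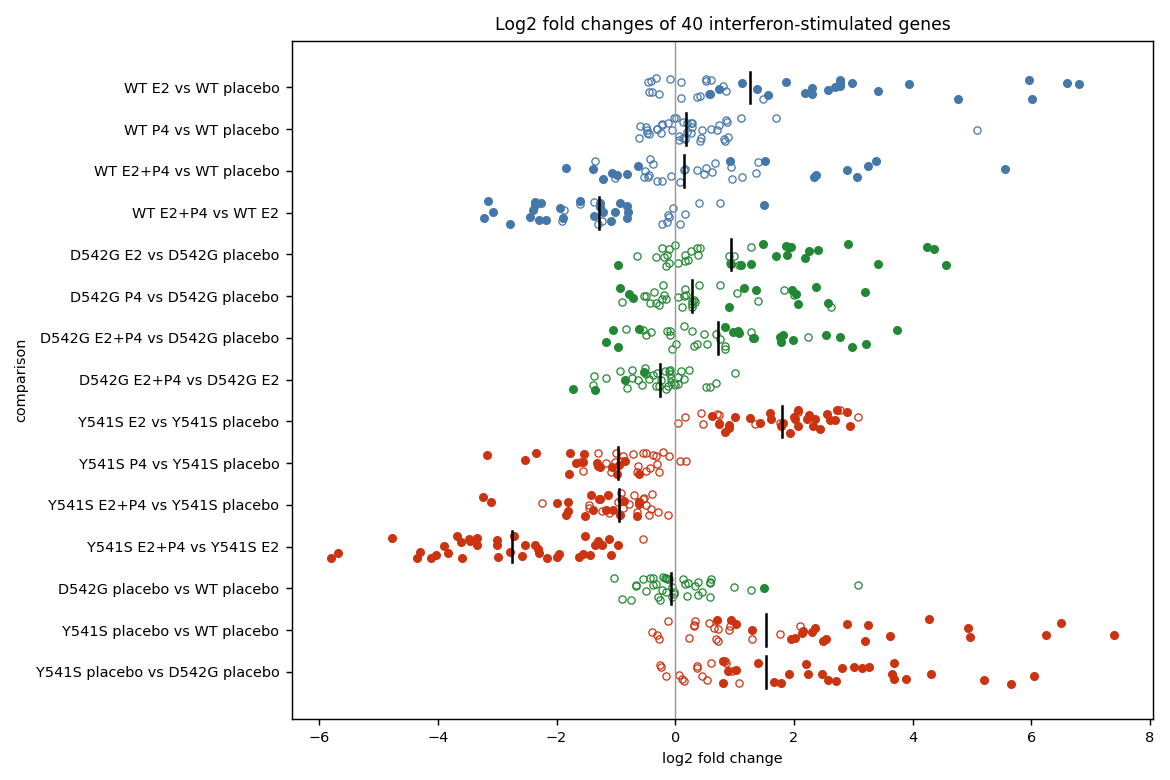
Log2 fold changes of the 40 interferon-stimulated genes in each comparison (1 point per gene, filled where called at an adjusted p under 0.05, open where not, black bar at the median). The medians run from 1.81 for Y541S E2 against placebo to -2.75 for Y541S E2+P4 against Y541S E2.

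Adding P4 to E2 in Y541S cells left 39 of the 40 genes lower than with E2 alone and none higher, where 5.94% of all genes fell and 4.47% rose. The median log2 difference was -2.75 (0 over all genes). Irf7 was at 36.8, 31.4 and 29.9 CPM with both hormones, a fall from E2 alone of -3.89 ± 0.45 (adjusted p = 1.53e-06). Ifit3 was at 2.64, 3.17 and 3.36 CPM (-5.80 ± 0.71, adjusted p = 2.52e-06) and Oasl2 at 44.9, 50.0 and 53.3 CPM (-3.00 ± 0.30, adjusted p = 2.93e-07). For each of these genes, every E2+P4 library was below every E2 library. All 4 IFIT genes, all 5 OAS genes, all 5 sensors, all 4 Mx and guanylate-binding GTPases and all 11 other effectors fell, and so did Dtx3l (-1.62 ± 0.25) and Parp9 (-1.35 ± 0.21), which form a ubiquitin ligase complex. Stat2 alone was not called (-0.54 ± 0.35, adjusted p = 0.373). The groups did not overlap for 39 genes, all with E2+P4 lower, against 18.8% of all genes, and 35 to 38 were called when any single library was left out. Leukocyte markers were negative for 14 of 16, with 4 at an unadjusted p under 0.05, none called lower and 1 called higher. Their mean log2 CPM was -1.16 to -0.33 with E2+P4 against 0.11 to 1.39 with E2, with no overlap, while their summed CPM overlapped (92.1 to 105 and 66.7 to 110). Luminal progenitor markers were called lower for 4 of 7, with all 7 at an unadjusted p under 0.05, and endothelial markers were called lower for 2 and higher for 1 of 6. Mature luminal markers were called lower for 3 and higher for 1 of 10, and basal markers lower for 1 of 8. The part of these cells was not tested.

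The Y541S genes also fell below their own placebo level when P4 was present. With E2+P4, 20 genes were lower than in Y541S placebo and none higher, where 10.1% of all genes fell and 8.43% rose. Irf7 fell by -1.53 ± 0.41, Ifit3 by -3.10 ± 0.63 and Ifih1 by -1.27 ± 0.24, the last from 45.0, 47.5 and 70.8 CPM to 26.0, 18.4 and 23.2 CPM. With P4 alone, 16 genes were lower and none higher, where 6.13% fell and 5.14% rose. Irf7 was then at 36.8, 21.8 and 30.7 CPM (-1.67 ± 0.42, adjusted p = 0.00844) and Zbp1 at 11.6, 7.13 and 10.9 CPM, against 23.9 to 33.1 CPM with placebo (-1.56 ± 0.31, adjusted p = 0.00125). Lgals3bp fell from 409, 328 and 215 CPM to 163, 155 and 174 CPM (-0.95 ± 0.20). P4 libraries were all below placebo for 24 genes and all above for 1, against 13.8% and 17.2% of all genes. Leukocyte markers were negative for 15 of 16 with P4 and for 14 of 16 with E2+P4, and fibroblast markers for 6 of 6 and 5 of 6, with 1 fibroblast marker called lower with E2+P4 and none with P4. Their part was not tested. E2+P4 libraries were all below placebo for 29 genes and all above for none, against 15.7% and 18.9%.

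Both counts against Y541S placebo varied with the libraries used. For E2+P4, 11 were called without placebo library 2, and 13, 10 and 11 without E2+P4 libraries 1, 2 and 3. For P4, 10 were called without placebo library 2, 10, 4 and 8 without P4 libraries 1, 2 and 3, and 10 within the first identifier series. The levels were then set against WT libraries. In Y541S E2+P4, 21 genes lay above every WT placebo library and 10 below, with shares over all genes of 27.1% and 25.6%, and with P4, 17 lay above every WT P4 library and 2 below, with shares of 21.9% and 21.3%. D542G P4 lay above every WT P4 library for 10 genes and below for 3, with shares of 10.7% and 12.4%.

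In WT cells P4 alone gave 0 calls among the 40 genes, with 0.923% of all genes higher and 0.505% lower. At an unadjusted p under 0.05 there were 10 genes, and DESeq2 called 1, Mx1. All P4 libraries lay above all placebo libraries for 6 genes and below for 2, as they did for 9.23% and 8.50% of all genes. Stat2 was at 60.9, 67.4, 61.3 and 87.8 CPM in WT P4, above every one of the other 33 libraries, as were 0.326% of all genes, and its difference from WT placebo (33.2 to 43.3 CPM) was 0.82 ± 0.33 (adjusted p = 0.232). Fitted on these groups alone, Stat2 was the 1 gene called. Irf7, at 17.8 to 29.0 CPM, overlapped WT placebo (18.7 to 23.6 CPM).

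WT cells given E2+P4 were lower than those given E2 alone for 24 genes and higher for 1, where 8.28% of all genes fell and 10.2% rose, and the median was -1.28 (-0.05 over all genes). Irf7 was at 36.7, 34.9 and 19.8 CPM (-2.26 ± 0.42, adjusted p = 0.000315) and Rtp4 at 26.6, 20.7 and 9.56 CPM, against 54.5, 290 and 159 CPM with E2 (-3.15 ± 0.41, adjusted p = 2.82e-06). All 5 sensors fell, among them Dhx58 (-2.36 ± 0.34) and Ifih1 (-1.08 ± 0.24), and neither antigen-processing gene did. Bst2 went the other way, from 128, 199 and 121 CPM with E2 to 348, 414 and 508 CPM (1.5 ± 0.27, adjusted p = 0.000173), with every E2+P4 library above every E2 library. The groups did not overlap for 1 gene with E2+P4 higher and 20 with it lower, against 13.6% and 12.8% of all genes. Fitted on these groups alone, 7 genes were called. Luminal progenitor markers had a mean log2 CPM of 7.62 to 8.45 with E2+P4 against 9.05 to 9.88 with E2. Mature luminal markers were at 8.71 to 9.66 against 7.61 to 8.58, and neither list overlapped. Leukocyte markers did overlap (-0.86 to 1.2 and -1.38 to 1.16). The part of these cells in the falls was not tested.

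Against WT placebo, the combination moved the genes in both directions. There were 9 genes higher and 7 lower, where 11.8% of all genes rose and 11.5% fell. Bst2 rose by 3.07 ± 0.28 (adjusted p = 4.91e-09), Ifit3 by 2.89 ± 0.70 and Ifi27l2a by 3.38 ± 0.73. The genes that fell included 3 of 5 sensors, Ddx58 (from 110, 91.2 and 134 CPM to 51.2, 44.2 and 49.5 CPM, -1.21 ± 0.21), Dhx58 (-1.84 ± 0.34) and Ifih1 (-0.98 ± 0.24), with Parp9, Dtx3l, Oasl2 and Xaf1. All E2+P4 libraries were above all placebo libraries for 12 genes and below for 10, shares that were 18.5% and 20.2% over all genes. In the same libraries, 3 of 4 IFIT genes thus ended above WT placebo and 3 of 5 sensors below it. Leukocyte markers had a mean log2 CPM of -0.86 to 1.2 with E2+P4 against -2.25 to -1.84 with placebo. Luminal progenitor means were 7.62 to 8.45 against 6.43 to 6.8, and endothelial means 1.97 to 4.25 against 1.61 to 1.8. These 3 lists did not overlap, while mature luminal, basal and fibroblast means did. The part of these cells was not tested.

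In D542G cells, E2 raised 17 genes and lowered 1, where 8.36% of all genes rose and 7.34% fell. The median was 0.94 (0.01 over all genes). Ifit3 went from 0.886, 0.204 and 0.469 CPM to 8.82, 9.21 and 19.3 CPM (4.57 ± 0.70, adjusted p = 3.21e-05), and Irf7 from 13.1 to 15.8 CPM to 27.6, 42.9 and 51.0 CPM (1.48 ± 0.42, adjusted p = 0.0142). The gene that fell was Ddx58, from 102, 92.6 and 105 CPM to 66.0, 61.1 and 26.8 CPM (-0.96 ± 0.21, adjusted p = 0.0018). Oasl2 (0.36 ± 0.28) and Irf9 (0.17 ± 0.20) were not called. Leukocyte markers were positive for 13 of 16, with 2 called higher, and their mean log2 CPM of -1.87 to 0.54 overlapped that of D542G placebo (-1.95 to -0.97). Fibroblast markers were positive for 5 of 6, with 1 called higher. Their mean log2 CPM was 1.85 to 3.87 against 0.88 to 1.36 in D542G placebo, with no overlap. Their summed CPM overlapped (261 to 532 and 250 to 920). The part of these cells was not tested. The groups did not overlap for 20 genes with E2 higher and 4 with E2 lower, against 18.6% and 18.0% of all genes. Without D542G placebo library 2, 11 genes were called.

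P4 alone raised 9 genes and lowered 3 in D542G cells, where 9.49% of all genes rose and 8.88% fell, with Ifit3 up by 2.38 ± 0.66 and Oasl2 by 0.91 ± 0.28, and with Bst2 (-0.78 ± 0.26), Psmb8 (-0.94 ± 0.23) and Ifi35 (-0.72 ± 0.17) down. All P4 libraries were above the placebo libraries for 17 genes and below for 5, against 17.9% and 19.6% of all genes. The number called was 3 without D542G P4 library 2, 6 without placebo library 3 and 6 on these groups alone. With E2+P4, 15 rose and 4 fell, where 13.0% rose and 12.4% fell, and 11 were called without D542G placebo library 2 or without E2+P4 library 2. Those groups were apart for 17 genes upward and 6 downward, against 22.7% and 21.9% of all genes. Luminal progenitor means (log2 CPM) were 7.17 to 8.81 with P4 and 7.29 to 8.32 with E2+P4, against 5.4 to 6.15 with placebo. Endothelial means were 3.31 to 4.62 and 3.43 to 3.9, against 0.9 to 2.44. Mature luminal means were lower, at 8.76 to 9.24 and 8.33 to 8.79 against 9.27 to 9.6. Fibroblast means were higher in both. Leukocyte means lay apart with E2+P4 only (-0.38 to 0.33 against -1.95 to -0.97), and basal means overlapped. The part of these cells was not tested. Against E2 alone, E2+P4 lowered 4 genes and raised none, where 10.8% of all genes fell and 10.0% rose. They were Usp18 (52.1, 55.8 and 52.2 CPM to 15.8, 20.0 and 12.7 CPM, -1.73 ± 0.34), Rsad2, Ifi35 and Psmb8, and 2 were called without D542G E2 library 1 or E2+P4 library 3. The groups were apart for 1 gene upward and 7 downward, against 18.1% and 18.8% of all genes. Both the number called lower and the number apart downward were thus near the shares over all genes. Against placebo, the numbers called lower and apart downward with P4 and with E2+P4 were not above their shares over all genes either. Irf7 (-0.17 ± 0.41) and Isg15 (-0.56 ± 0.42) were not called with E2+P4 against E2. The difference of that comparison from the falls in WT and Y541S was not tested.

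The genes called higher with E2 overlapped between genotypes. WT and D542G shared 17 genes, 77.3% of the WT and 100% of the D542G genes. WT and Y541S shared 19, 86.4% of the WT and 67.9% of the Y541S genes. The 15 genes called in all 3 genotypes were the 4 IFIT genes, Isg15, Irf7, Oas1a, Oasl1, Rsad2, Cmpk2, Ifi27l2a, Ifi44, Rtp4, Zbp1 and Gbp3. The levels reached with E2 lay apart: for 34 genes every Y541S E2 library lay above every WT E2 library and for none below, against 15.6% and 13.1% of all genes. For 37 genes every Y541S E2 library was above every D542G E2 library and for none below, against 18.6% and 18.4%. WT E2 and D542G E2 were closer, with WT higher for 9 genes and lower for 3 (Usp18, Bst2 and Lgals3bp), against 15.9% and 18.7%.

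The feedback and antigen-processing genes followed the rest to different degrees. Usp18 was at 16.2, 11.9 and 15.1 CPM in WT placebo, 10.2, 33.8 and 31.5 CPM in WT E2, 73.0, 67.0 and 34.8 CPM in Y541S placebo and 176, 82.6 and 161 CPM in Y541S E2. Tap1 was at 105, 75.0 and 133 CPM in WT placebo and 136, 139 and 141 CPM in WT E2, against 236, 218 and 147 CPM and 438, 278 and 410 CPM in the same groups of Y541S. For both genes, with placebo and with E2, every Y541S library was above every WT library. Psmb8 was not raised in any comparison with placebo, at 119, 94.6 and 49.9 CPM in Y541S placebo and 109, 78.3 and 109 CPM in Y541S E2. It fell with E2+P4 against placebo in Y541S, to 41.9, 39.3 and 38.2 CPM (-1.14 ± 0.23, adjusted p = 0.00088), and in D542G, from 89.3, 86.7 and 117 CPM to 38.9, 49.2 and 42.5 CPM (-1.16 ± 0.23, adjusted p = 0.000411). Mx1 was at 0.432, 1.42 and 2.11 CPM in WT E2 and at 2.04, 0.656 and 0.489 CPM in D542G E2, below each of the 3 Y541S E2 libraries (13.1 to 20.8 CPM).

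Whether the responses differed between genotypes was tested as a difference of log2 fold changes. For E2, Y541S minus WT was called for 5 genes, 1 higher and 4 lower, where 4.02% and 4.01% of all genes were called. Ddx58 responded more in Y541S by 1.39 ± 0.30 (adjusted p = 0.00334), with WT placebo at 91.2 to 134 CPM, WT E2 at 83.5 to 86.1 CPM, Y541S placebo at 79.9 to 91.8 CPM and Y541S E2 at 197, 139 and 171 CPM. Ifit3 (-3.28 ± 0.89, adjusted p = 0.0206), Ifit1 (-2.44 ± 0.71, adjusted p = 0.0294), Ifit3b and Ifi27l2a responded less in Y541S on the log2 scale, from a placebo level that was already higher. The count was 1 without WT placebo library 3 and 3 without WT placebo library 1, WT E2 library 2 or Y541S E2 library 3. D542G minus WT gave 0 calls with edgeR, where 4.52% and 4.71% of all genes were called. There were 7 genes at an unadjusted p under 0.05, 1 call with DESeq2 (Rtp4, lower), 1 call without D542G E2 library 3 and 6, all lower in D542G, without WT E2 library 1.

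For E2+P4 against placebo, Y541S minus WT was lower for 16 genes and higher for none, where 5.68% and 3.00% of all genes were called. Bst2 differed by -3.72 ± 0.38 (adjusted p = 2.19e-07), since it rose in WT and stood at 164, 155 and 156 CPM in Y541S, against 356, 250 and 140 CPM with placebo. Ifit3 differed by -6.00 ± 0.94 (adjusted p = 9.92e-05) and Irf7 by -2.05 ± 0.58 (adjusted p = 0.0246). Without WT placebo library 2, 9 genes were called. D542G minus WT was called for Oasl2 (1.87 ± 0.40, adjusted p = 0.00669) and Bst2 (-2.24 ± 0.37, adjusted p = 0.000832) only, where 1.16% of all genes were higher and 3.14% lower, and for 6 genes without WT E2+P4 library 1.

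Around these genes, the ligands were nearly absent from the counts. Of 21 type I, II and III interferon genes listed, 2 were tested. Ifnb1, interferon beta, had 844 counts over 12 libraries. It was at 4.75, 2.15 and 6.45 CPM in Y541S E2, at 0.980, 1.37 and 0.144 CPM in Y541S placebo and at 0 in all WT placebo, D542G placebo and Y541S E2+P4 libraries. In Y541S P4, where 16 interferon-stimulated genes fell, it was at 1.62, 0.156 and 0 CPM, so that 1 library was above every Y541S placebo library. With E2 it was at most 0.0206 CPM in WT, and at 0.913, 0.173 and 0 CPM in D542G. Ifnb1 was called higher in Y541S placebo than in WT placebo (adjusted p = 0.0461) and lower in Y541S E2+P4 than in Y541S E2 (adjusted p = 0.0148), and its difference between Y541S E2 and Y541S placebo was not called (adjusted p = 0.475). No fold is given against groups at 0. Ifna4 had 145 counts in 6 libraries, Ifnz 49 in 19 and Ifng 6 in 1.

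**Figure D4:**
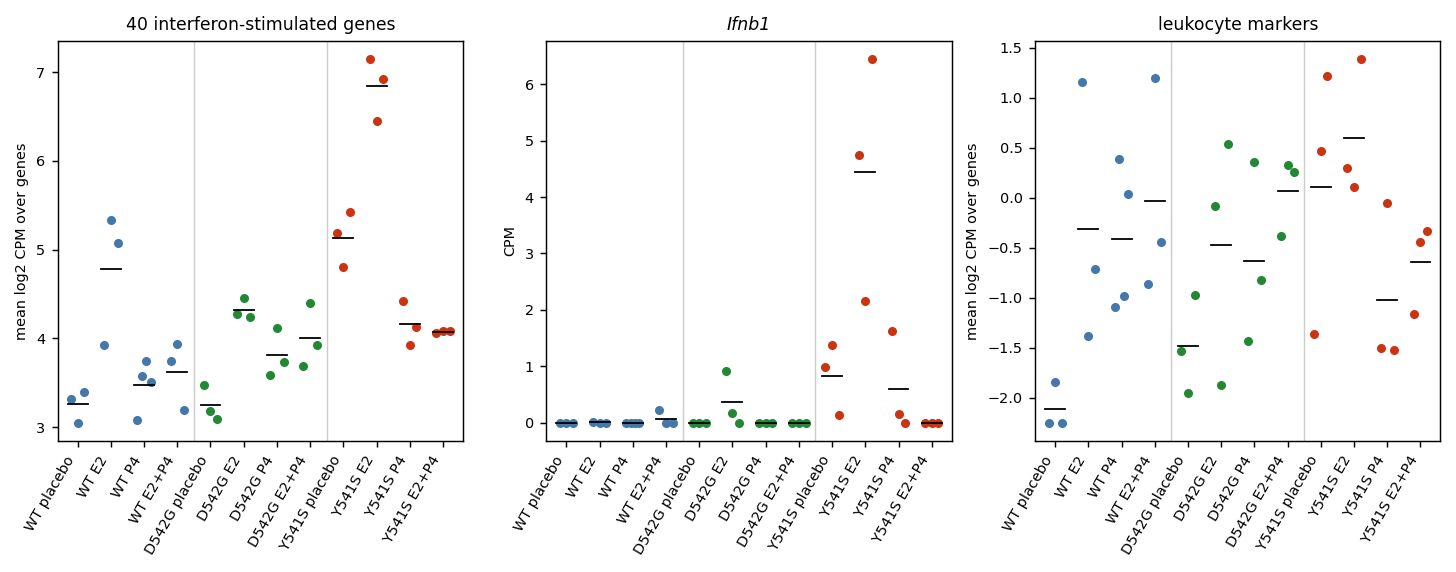
For each library (points, by genotype and treatment), the mean log2 CPM of the 40 interferon-stimulated genes, the CPM of Ifnb1 and the mean log2 CPM of the leukocyte markers, with group means as black lines. Y541S E2 is highest in the first panel (6.45 to 7.15) and in the second (2.15 to 6.45 CPM), and its leukocyte marker means (0.11 to 1.39) overlap those of Y541S placebo (-1.36 to 1.22).

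The receptors and signalling genes moved in both directions in WT. Of 9 receptor and kinase genes, E2 raised 3 in WT, Ifngr2 (1.16 ± 0.13), Ifngr1 (1.31 ± 0.21) and Ifnar2 (0.56 ± 0.16), and lowered 2, Ifnlr1 (-1.51 ± 0.26) and Jak1 (-0.56 ± 0.18), where 15.6% of all genes rose and 15.9% fell. In Y541S, E2 moved none of them, but only 1.87% of all genes rose and 2.78% fell in that comparison. Irf1, an interferon gamma target, fell with E2 in WT (-1.54 ± 0.17, adjusted p = 1.05e-07) while Irf7 rose. Socs3, a feedback inhibitor of JAK and STAT signalling, fell from 2650, 1990 and 2870 CPM to 139, 150 and 187 CPM in the same comparison (-3.98 ± 0.33, adjusted p = 2.4e-09). The antigen-presentation genes also parted from the 22 that rose: 7 of 10 MHC class I and immunoproteasome genes fell with E2 in WT and none rose, against the same 15.9% and 15.6%, with H2-K1 at 2160, 1560 and 2310 CPM with placebo and 1160, 1010 and 996 CPM with E2 (-0.93 ± 0.21, adjusted p = 0.000889). H2-K1 rose by 1.83 ± 0.21 when P4 was added to E2, as Bst2 did.

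Of interferon-stimulated genes outside the 41, 38 were tested. They too were listed with earlier results of these data known, so they are no independent check. With E2 in WT, 10 rose and 5 fell, where 15.6% and 15.9% of all genes did, so the number that fell was near the background. With E2 in Y541S, 16 rose and none fell (1.87% and 2.78% of all genes). With E2+P4 against E2 in Y541S, 29 fell and none rose (5.94% and 4.47%), and in Y541S placebo 11 were higher and none lower than in WT placebo (7.18% and 6.22%). Ccl5, a chemokine for T cells, was at most 0.46 CPM in WT placebo, 5.77 to 7.85 CPM in WT E2, 11.0 to 20.8 CPM in Y541S placebo and 89.2, 31.1 and 80.0 CPM in Y541S E2. It rose with E2 in WT (5.15 ± 0.78, adjusted p = 1.09e-05), was not called with E2 in Y541S (2.08 ± 0.64, adjusted p = 0.0578) and fell with E2+P4 against E2 in Y541S (-4.08 ± 0.70, adjusted p = 0.000176). Ifi204, a DNA sensor, was 7.78 ± 0.96 higher in Y541S placebo than in WT placebo.

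Some values may rest on shared sequence. Ifit3 and Ifit3b, the OAS genes and the guanylate-binding genes belong to families of related genes, and how alike their sequences are was not measured. How reads that match several genes were counted is not given in the sources used here, so the split within each family is uncertain. Other annotated genes overlap 62.8% of the span of Usp18, 57.3% of Psmb8, 53.8% of Herc6, 42.4% of Rtp4 and 28.1% of Dhx58, and whether counting used strand is not given either.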

How the data were processed

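Counts per gene from 37 RNA-seq libraries were used as deposited, in whole reads per Ensembl gene, and the build is GRCm38 per the submitters' processing notes. No aligner, counter or strand setting is given in the sources used here. The authors' deposited RPKM values and gene widths (in the files' own unit, which equals the gene's span in GENCODE M21 for 85.6% of genes) were read only to understand the tables. Counts were filtered with filterByExpr, scaled by TMM (factors 0.767 to 1.17) and fitted in 1 quasi-likelihood model with a coefficient per group (edgeR 4.0.16, R 4.3.3, 25 residual degrees of freedom). The 19 comparisons are contrasts of that fit, each Benjamini-Hochberg adjusted over 18426 genes. Standard errors came from dividing the absolute log2 fold change by √F. The code was tested on simulated data for WT E2 against WT placebo. It recovered 38 of 100 changes of 2-fold and 78 of 100 of 4-fold, with 3 false calls. A gene that was not called may therefore still have changed. Members may all be named, with values per library for 16 genes chosen by role. Members and lists were chosen with earlier results of these data known. Alternatives were DESeq2 1.42.0, RLE size factors, no filter, the groups alone, the first identifier series, a replicate block, single libraries left out and, added after the data were seen, WT placebo 2, WT P4 2 and Y541S placebo 5 left out together. Promoters are RefSeq's.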

Additional observations from a re-analysis of the deposited data

Results flagged for a closer look

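Differences between genotypes in the response were called by the edgeR test of the difference for these genes of the named set. For E2, Y541S minus WT was -2.44 for Ifit1 and -3.28 for Ifit3. For E2+P4, D542G minus WT was 1.87 for Oasl2 and -2.24 for Bst2. For E2+P4, Y541S minus WT was -4.17 for Ifit1, -6.0 for Ifit3, -2.05 for Irf7, -1.72 for Usp18, -3.72 for Bst2, -1.42 for Zbp1 and -1.01 for Tap1, all as log2 values. Mx1 was called there too (-6.52), but with 1 count in the WT placebo libraries together its fitted value is no measure of size. Several of the calls in this paragraph were lost under other settings, as given below.

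For Isg15 and 5 of the genes above, every library of one mutant moved up from its placebo group and every library of the other moved down, and this difference was not tested. With P4, Y541S and D542G gave -1.67 and 1.04 for Irf7, -1.78 and 1.4 for Ifit1, -2.35 and 2.38 for Ifit3, -1.31 and 0.76 for Isg15, and -1.56 and 0.17 for Zbp1. With E2+P4 they gave -1.53 and 1.31 for Irf7, -1.8 and 1.98 for Ifit1, -3.1 and 3.21 for Ifit3, -1.11 and 1.32 for Isg15, -0.78 and 1.05 for Oasl2, and -0.93 and 0.97 for Zbp1. Not all of these single changes were called, and the Y541S placebo level was the higher one for each. The genes were picked for this pattern among the 16 given per library. With P4, 17.9% of all genes lay apart upward in D542G and 13.8% downward in Y541S. With E2+P4 the shares were 22.7% and 15.7%. The share of all genes with both at once was not counted.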

How the results depend on the processing

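No result reversed. Of 266 counts of called genes over 19 comparisons and their alternatives, 222 were within 1.5 times the count reported. For the single genes chosen by role, 1373 repeats kept the call and 228 lost it. Among the Y541S minus WT differences, E2 lost it in 11 of 19 settings for Ifit1 and 8 for Ifit3. For E2+P4, Zbp1 lost it in 12 of 19, Irf7 in 8, Mx1 in 7, Usp18 in 4 and Tap1 in 1. Ifit1, Ifit3 and Bst2 kept it there in all 19. Fitted on the compared groups alone, the counts were 1 for WT P4, 7 for WT E2+P4 against E2, 6 for D542G P4, 0 for Y541S E2, 9 for Y541S P4, 2 for D542G against WT placebo, 16 for Y541S against D542G placebo and 1 for the E2 difference of Y541S and WT; fewer libraries estimate the spread there. DESeq2 gave 1 for WT P4, 2 for D542G against WT placebo, 1 and 9 for the E2 differences of D542G and Y541S from WT, and 4 for the E2+P4 difference of D542G. The first identifier series gave 10 for Y541S P4 and 4 for the E2+P4 difference of D542G. With the 3 libraries left out together, Y541S P4 gave 10 and the E2+P4 difference of Y541S 8.

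With single libraries left out, the lowest and highest counts were 20 and 25 for WT E2, 0 and 0 for WT P4, 13 and 14 for WT E2+P4, 20 and 25 for WT E2+P4 against E2, 11 and 16 for D542G E2, 3 and 13 for D542G P4, 11 and 18 for D542G E2+P4, 2 and 5 for D542G E2+P4 against E2, 16 and 28 for Y541S E2, 4 and 14 for Y541S P4, 10 and 16 for Y541S E2+P4, and 35 and 38 for Y541S E2+P4 against E2. They were 1 and 2 for D542G, 21 and 23 for Y541S against WT placebo, 19 and 23 for Y541S against D542G placebo, 0 and 6 and 1 and 6 for the E2 differences of D542G and Y541S, and 2 and 6 and 9 and 17 for the E2+P4 differences.

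Same-numbered libraries did not deviate together (178 pairs, median r 0, range -0.5 to 0.56, 17 above 0.1), so the numbers were not taken as pairs. With the replicate block, Y541S P4 gave 8 calls, and no other count moved by more than 1.5 times: WT E2 gave 22, Y541S E2 27, Y541S E2+P4 against E2 39 and Y541S against WT placebo 21. Where not stated above, the cause of a change was not tested. Depth limits Ifnb1 and Mx1, which had few or no counts in several groups.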
